A study of Bos taurus with 28 samples.

Results

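The miR-15/16 family in milk extracellular vesicles (EVs) was represented by bta-miR-15b, bta-miR-16a and bta-miR-16b, which are all members of the family that the deposited table holds. They are 3 of its 132 miRNAs and were chosen by name, and no member was left out by a filter. EVs are membrane-enclosed particles that cells release into milk with a cargo of RNA and protein. Small RNA sequencing covered 28 EV libraries from the skimmed milk of 4 cows, 14 from evening and 14 from morning milkings. Cow 3 and Cow 1 gave 6 libraries each over 3 days, and Cow 4 and Cow 2 gave 8 each over 4 days. All were dairy cows of 1 experimental herd, admitted with a negative mastitis test and a low somatic cell count (SCC). No treatment was compared, and neither breed nor age was given in the sources used here. The question was whether the time of milking, the cow, the day or the SCC moved these miRNAs, and how stable they would be as references.

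The members of the family carry the same seed, the stretch near the 5′ end that pairs with target mRNAs, and share many targets that drive the cell cycle and block cell death. The family is therefore best known for restraining proliferation. miR-16 is abundant in red blood cells and is among the miRNAs most often used to normalize measurements in blood and other body fluids. In the bovine RefSeq annotation (ARS-UCD2.0), the genes of miR-15b and miR-16b lie next to each other within SMC4, a gene of the condensin complex that packs chromosomes. The gene of miR-16a neighbours that of miR-15a at another locus. The mature forms of miR-16a and miR-16b are near-identical, and the authors grouped sequence variants under the canonical form, so how reads were divided between the pair is uncertain.

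The values are log2 CPM, which are read counts that the authors scaled to the effective size of each library and put on a log2 scale. Reads were worked back from them, with totals over the 132 miRNAs of 101968 to 325211 per library (median 158620). The normalization factors ranged from 0.696 to 1.35. Of the comparisons made, that among cows called the most miRNAs, with 47% of the 132 miRNAs past a false discovery rate (FDR) of 0.05. Libraries of 1 cow are milkings of 1 animal, so p-values measure the spread between milkings and do not extend to cows in general. A higher level can mean more vesicles from cells rich in a miRNA or more of it per vesicle, which cannot be told apart here.

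miR-16a carried most of the signal of the family. It had 4404 reads over the 28 libraries, or 80.5% of the family's reads, with miR-16b at 805 reads (14.7%) and miR-15b at 260 reads (4.75%). Together they took 0.0298% to 0.236% of a library's reads (median 0.116%). By mean level they ranked 58, 89 and 111 among the 132 miRNAs, for miR-16a, miR-16b and miR-15b in that order. No library had 0 reads of any of them. Precision differed widely, since miR-16a had 30 to 340 reads per library (median 148), miR-16b 5 to 72 (median 27) and miR-15b 1 to 29 (median 8).

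Each of the 3 miRNAs differed among the cows, but not in the same order. miR-15b and miR-16b were highest in Cow 3 and lowest in Cow 2, whereas miR-16a was as high in Cow 2 as in Cow 3 and lowest in Cow 4. The moderated F test of limma with Benjamini-Hochberg adjustment over the 132 miRNAs gave adjusted p-values of 0.0092 for miR-15b, 0.0082 for miR-16a and 0.0104 for miR-16b. These are 3 of 3 members, beside the 47% of all miRNAs called by this test.

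The level of miR-15b ran from 5.80 to 7.47 log2 CPM for Cow 3 (median 6.60), from 4.78 to 6.62 for Cow 4 (median 5.97), from 4.49 to 6.06 for Cow 2 (median 5.33) and from 5.67 to 6.37 for Cow 1 (median 5.83). The means were 6.61 ± 0.62 for Cow 3 (SD, n = 6), 5.94 ± 0.62 for Cow 4 (n = 8), 5.32 ± 0.55 for Cow 2 (n = 8) and 5.96 ± 0.32 for Cow 1 (n = 6). All cows overlapped, and only the ends of the order passed the test between cows. The level was higher in Cow 3 than in Cow 2 by 1.29 in log2 (SE 0.305, 95% interval 0.66 to 1.91, limma adjusted p = 0.0014), a comparison in which 30.3% of all miRNAs were called. Cow 3 against Cow 4 (0.67, adjusted p = 0.109) and against Cow 1 (0.65, adjusted p = 0.146) missed the threshold, as did Cow 4 against Cow 2 (0.62, adjusted p = 0.125). Cow 3 against Cow 4 passed without the Cow 3 morning library of day 2 (0.83, adjusted p = 0.0479), and Cow 4 against Cow 2 passed without the Cow 4 morning library of day 3 (0.78, adjusted p = 0.0393). The first also passed after quantile normalization (0.88, adjusted p = 0.0409) and the second with library medians set equal (0.80, adjusted p = 0.0422).

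The level of miR-16b followed the same order of cows. It ran from 7.33 to 8.39 log2 CPM for Cow 3 (median 8.02), from 6.81 to 7.69 for Cow 4 (median 7.48), from 5.57 to 7.47 for Cow 2 (median 6.93) and from 6.60 to 8.08 for Cow 1 (median 7.36). The means were 7.95 ± 0.36 for Cow 3 (SD, n = 6), 7.38 ± 0.35 for Cow 4 (n = 8), 6.77 ± 0.70 for Cow 2 (n = 8) and 7.39 ± 0.59 for Cow 1 (n = 6). Most Cow 3 libraries lay in the upper part of the range, while 2 morning libraries of Cow 2, with 5 and 7 reads, were below all others. Cow 3 exceeded Cow 2 by 1.18 in log2 (SE 0.287, 95% interval 0.59 to 1.76, limma adjusted p = 0.0016). No other pair of cows passed the test for miR-16b on the values as deposited. Cow 4 against Cow 2 passed when library medians were set equal (0.79, adjusted p = 0.034), and Cow 3 against Cow 2 missed the threshold in the evening libraries alone (0.99, adjusted p = 0.078). With the reads of miR-16a and miR-16b summed, a sum that is mostly miR-16a, Cow 3 against Cow 2 was 0.16 (limma adjusted p = 0.581). With the deposited values the intermediate cows, Cow 4 and Cow 1, differed by -0.01 (95% interval -0.60 to 0.57). With each cow and day as a random replicate block, the F test of miR-16b missed the threshold (limma adjusted p = 0.0583).

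The level of miR-16a, the most abundant member, ran from 9.75 to 10.46 log2 CPM for Cow 3 (median 10.05), from 8.15 to 9.83 for Cow 4 (median 9.43), from 9.58 to 10.58 for Cow 2 (median 10.05) and from 9.06 to 10.34 for Cow 1 (median 9.76). The means were 10.08 ± 0.30 for Cow 3 (SD, n = 6), 9.33 ± 0.50 for Cow 4 (n = 8), 10.07 ± 0.29 for Cow 2 (n = 8) and 9.68 ± 0.48 for Cow 1 (n = 6). Cow 4 was the low one here, with 1 evening library, that of day 2, well below the others. miR-16a was higher in Cow 3 than in Cow 4 by 0.75 in log2 (SE 0.216, 95% interval 0.31 to 1.19, limma adjusted p = 0.0096), where 25.8% of all miRNAs were called. It was lower in Cow 4 than in Cow 2 by the same amount (-0.75, SE 0.200, 95% interval -1.15 to -0.34, adjusted p = 0.0057), where 18.9% were called. Without that low library both contrasts kept their direction and their call. Cow 3 and Cow 2, which stood farthest apart for the other members, differed in miR-16a by 0.003 (95% interval -0.44 to 0.44).

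**Figure D1:**
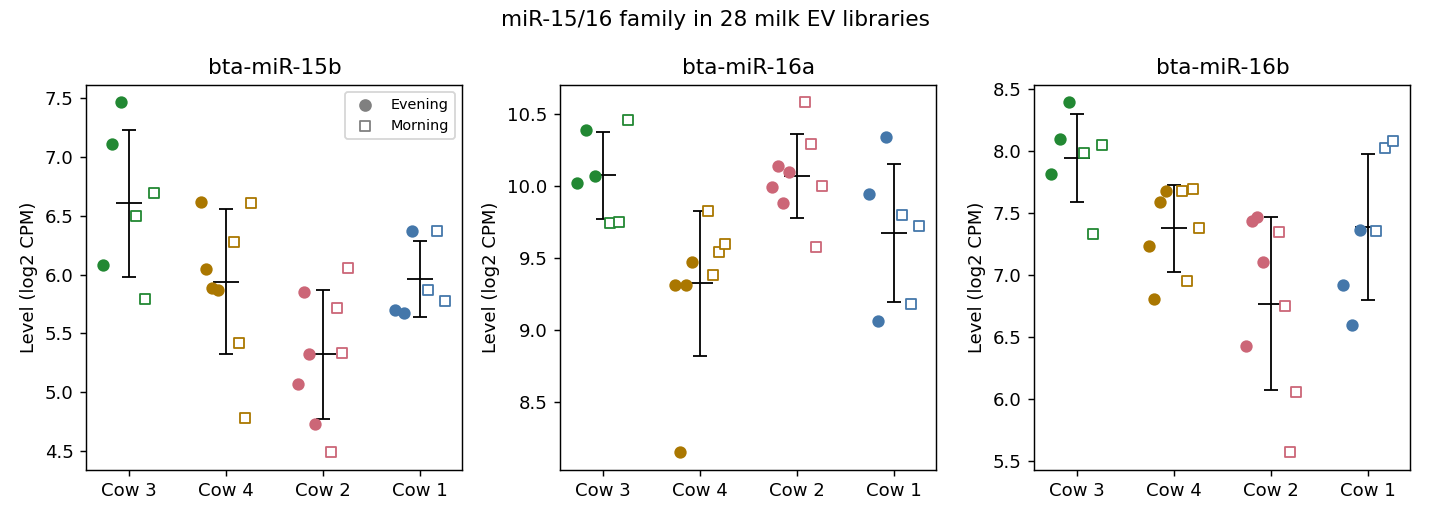
Level of each member in log2 CPM (vertical axis, own range per panel) in the 28 libraries by cow. Filled circles are evening and open squares morning libraries, and the black bars give the mean ± SD of a cow. miR-15b and miR-16b have their highest mean in Cow 3 (6.61 and 7.95) and their lowest in Cow 2 (5.32 and 6.77), while miR-16a is lowest in Cow 4 (9.33).

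In the comparisons with Cow 1 no member was called. The background there was 22.7% of miRNAs for Cow 3 against Cow 1, 5.3% for Cow 4 against Cow 1 and 9.85% for Cow 2 against Cow 1. When the cow and day pairs were averaged first, leaving 14 values, miR-15b (limma adjusted p = 0.0494) and miR-16b (0.0267) still passed the F test and miR-16a did not (0.0678). On the same values miR-16a in Cow 3 against Cow 4 missed the threshold as well (adjusted p = 0.06). In the 14 evening libraries alone, miR-16b missed the threshold of the F test (adjusted p = 0.126). In the 14 morning libraries alone no member passed it, with adjusted p-values of 0.547 for miR-15b, 0.342 for miR-16a and 0.0730 for miR-16b.

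Reads pooled within each cow gave the same picture on a linear scale. miR-15b was at 94.7 CPM for Cow 3 (exact Poisson 95% interval 75.9 to 117), at 51.0 for Cow 4, at 33.1 for Cow 2 (24.3 to 44.0) and at 50.5 for Cow 1. miR-16b was at 245 CPM for Cow 3 (214 to 279), at 166 for Cow 4, at 112 for Cow 2 (95.1 to 131) and at 174 for Cow 1. miR-16a was at 1080 CPM for Cow 3, at 676 for Cow 4, at 1075 for Cow 2 and at 869 for Cow 1. These intervals cover counting error only.

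The proportions within the family do not depend on how a library was scaled, apart from the prior count added to each read number, and they set Cow 2 apart. The log2 ratio of miR-16a to miR-16b averaged 2.13 ± 0.33 for Cow 3 (SD, n = 6), 1.95 ± 0.34 for Cow 4 (n = 8), 3.30 ± 0.57 for Cow 2 (n = 8) and 2.28 ± 0.74 for Cow 1 (n = 6). The difference among cows passed a permutation test that moved whole cow and day pairs between cows (p = 0.00095, adjusted over the 3 ratios 0.0029, 100000 draws). In pooled reads, miR-16a exceeded miR-16b 9.62-fold in Cow 2, beside 4.41-fold in Cow 3, 4.06-fold in Cow 4 and 4.99-fold in Cow 1. The groups overlapped, since 3 of the 8 Cow 2 libraries (2.42, 2.71 and 2.99) lay within the range of the other cows, which reached 3.02 in Cow 1, and the other 5 lay above it at up to 4.01. This ratio depends on how reads were divided between the near-identical miR-16a and miR-16b, which is uncertain, and the part of that division was not tested.

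miR-16a also changed its proportion to miR-15b. Their log2 ratio averaged 3.47 ± 0.53 for Cow 3 (SD, n = 6), 3.39 ± 0.81 for Cow 4 (n = 8), 4.75 ± 0.70 for Cow 2 (n = 8) and 3.71 ± 0.52 for Cow 1 (n = 6), with p = 0.0068 in the same permutation test (adjusted 0.0102). In the morning libraries alone it missed the threshold (permutation p = 0.191). The ratio of miR-16b to miR-15b, the members with neighbouring genes, showed no such shift between cows. Its log2 mean was 1.34 ± 0.32 for Cow 3, 1.44 ± 0.75 for Cow 4, 1.45 ± 1.01 for Cow 2 and 1.43 ± 0.51 for Cow 1 (permutation p = 0.996), although single libraries of Cow 2 ranged from 0 to 2.86. These ratios rest on 47 reads of miR-15b in all of Cow 2, and what shift the test could have found was not tested.

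**Figure D2:**
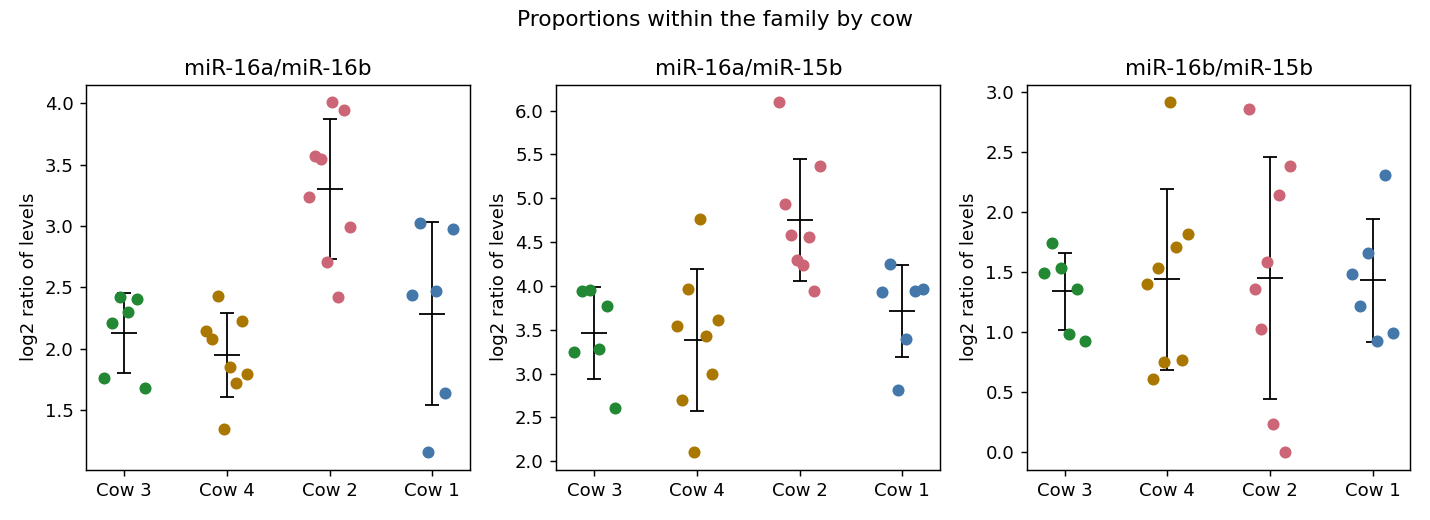
Log2 ratio of the levels of each pair of members (vertical axis, own range per panel) in each library by cow, with the mean ± SD of a cow as black bars. The ratio of miR-16a to miR-16b averages 3.30 for Cow 2, and 1.95 to 2.28 for the rest, while the ratio of miR-16b to miR-15b averages 1.34 to 1.45 in all 4.

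Across the 28 libraries miR-15b and miR-16b had a Pearson r of 0.470, which was 0.070 after the mean of each cow was removed. miR-16a and miR-16b had an r of 0.191, and 0.413 with cow means removed, and miR-16a and miR-15b had an r of -0.003. These are descriptions over libraries that share cows and scaling. The miRNAs closest to miR-16a in pattern were miR-26c (r = 0.717), miR-27b (0.706) and miR-24-3p (0.665). Those closest to miR-16b were miR-181b (0.732), miR-10174-3p (0.722) and miR-23a (0.665), and those closest to miR-15b were miR-200c (0.646), miR-2904 (0.631) and miR-181b (0.571). With cow means removed, r in the same order was 0.422, 0.524 and 0.756 for miR-16a. It was 0.653, 0.576 and 0.494 for miR-16b, and 0.423, 0.264 and 0.177 for miR-15b. No member was among the 3 miRNAs closest to another member.

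Other miRNAs linked to red blood cells were examined beside the family. Of a list of 9, including the members, 6 were measured. The rest of the list, miR-451, miR-486 and miR-144, the most specific to red cells, were not among the measured miRNAs. Apart from the members, miR-25, miR-92a and miR-185 remained, of which 2 of 3 were called among cows, beside 47% of all miRNAs. Their summed level was 25657 to 34086 CPM for Cow 3, 19443 to 27595 for Cow 4, 11906 to 23264 for Cow 2 and 14794 to 26385 for Cow 1. Cow 3 was at the high end of this sum, which is mostly miR-92a, and Cow 2 reached the lowest values. The list did not move as a whole. miR-92a was higher in Cow 3 than in Cow 2 (0.96, limma adjusted p = 6.7e-06) but missed the threshold against Cow 4 (0.34, adjusted p = 0.109). miR-25 was higher in Cow 3 than in each other cow (limma adjusted p of 0.0362 or less). miR-185 was not called among cows (limma F test, adjusted p = 0.501), and miR-16a was as high in Cow 2 as in Cow 3. The part of red cell RNA in the cow differences was not tested.

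Markers of the other cells that shed RNA into milk were examined in the same way. All 6 miRNAs of an epithelial list (the miR-200 family and miR-375) were measured, and their sum was 88864 to 102870 CPM for Cow 3, 68781 to 84746 for Cow 4, 71298 to 89450 for Cow 2 and 86031 to 109150 for Cow 1. Of these 6, 3 were called among cows, near the share of 47% over all miRNAs. Of an immune list of 9, 6 were measured and 5 were called, beside the same 47%. miR-142-5p, miR-150 and miR-223 were not among the 132 miRNAs. The immune sum was 24463 to 35886 CPM for Cow 3, 30215 to 34658 for Cow 4, 34059 to 46882 for Cow 2 and 29457 to 39067 for Cow 1. This sum is mostly miR-21-5p, and the members of the list did not move alike. miR-21-5p was lower in Cow 3 than in Cow 2 (-0.53, limma adjusted p = 0.00053), whereas miR-181a was higher in Cow 3 than in Cow 4 (1.69), Cow 2 (1.61) or Cow 1 (1.72). miR-181b was likewise higher in Cow 3, by 1.40, 1.52 and 1.23 in the same order (limma adjusted p of 0.00014 or less for each of these differences). No miRNA of the epithelial, immune or red blood cell list was called between evening and morning. The part of these cell types in the cow differences of the family was not tested.

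Evening and morning libraries did not differ detectably in any member. Over the 14 pairs of an evening and a morning milking of the same cow and day, miR-15b was higher in the evening in 8, miR-16a in 6 and miR-16b in 6. miR-15b averaged 5.99 ± 0.74 log2 CPM in the evening and 5.84 ± 0.66 in the morning (SD, n = 14 each), a difference of 0.15 (SE 0.216, 95% interval -0.29 to 0.59). miR-16a averaged 9.73 ± 0.61 in the evening and 9.82 ± 0.40 in the morning, a difference of -0.09 (SE 0.153, 95% interval -0.40 to 0.22). For miR-16b the means were 7.35 ± 0.56 in the evening and 7.30 ± 0.76 in the morning, a difference of 0.05 (SE 0.204, 95% interval -0.37 to 0.46). The limma adjusted p was 0.997 for each. Exact two-sided permutation tests of the sign of the pairs gave p = 0.466 for miR-15b, 0.525 for miR-16a and 0.842 for miR-16b. Over all miRNAs 0 of 132 (0%) were called by limma, with 2 at an unadjusted p under 0.05, and 0 by limma-voom on the recovered reads.

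The pairs themselves differed in both directions by more than these means. The median absolute difference within a pair was 0.61 in log2 for miR-15b, 0.29 for miR-16a and 0.57 for miR-16b. The most extreme pair was that of Cow 2 on day 3, where miR-16b was at 7.47 in the evening (29 reads) and at 5.57 in the morning (5 reads). In Cow 4, miR-16a was lower in the evening in all 4 pairs, and in Cow 1 miR-16b was lower in the evening in all 3 pairs. The difference between cows in the session effect did not pass the test for any member (interaction of cow and session, limma adjusted p = 0.969 for each, 0% of all miRNAs called, 1 at an unadjusted p under 0.05, and 0 by limma-voom). The unadjusted p of miR-16b in this test was 0.0505.

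**Figure D3:**
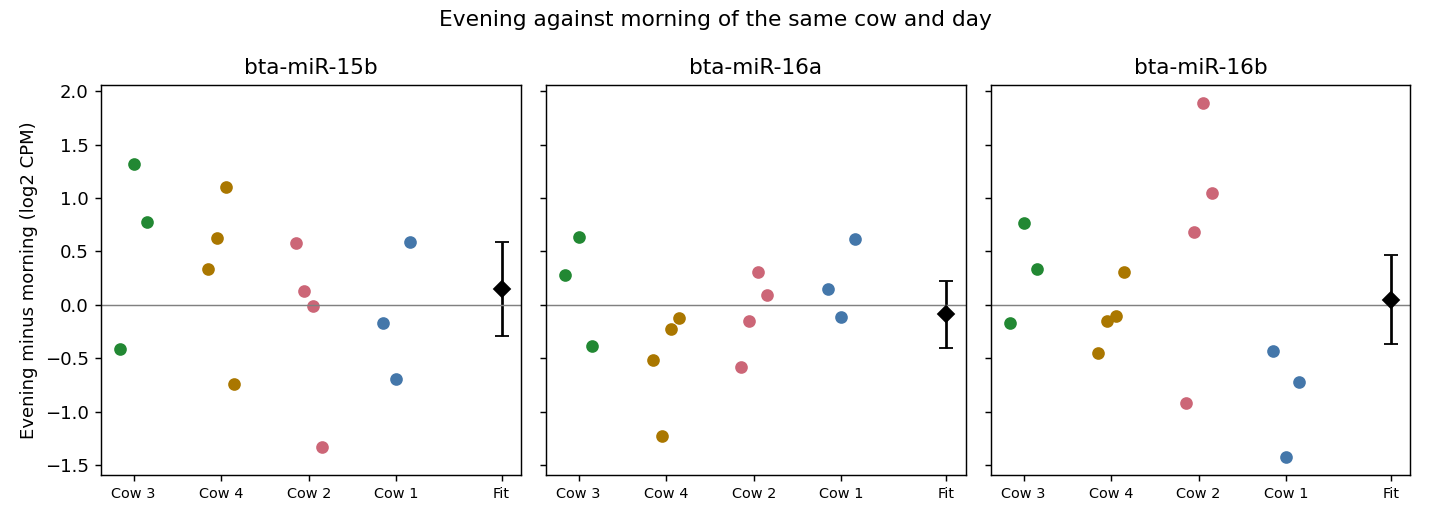
Evening minus morning level in log2 CPM (vertical axis, shared) for each of the 14 pairs by cow, with the fitted mean difference and its 95% interval as a black diamond and bar. Points lie on both sides of 0 in every panel, and the intervals (-0.29 to 0.59, -0.40 to 0.22 and -0.37 to 0.46) all include 0.

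SCC, mostly leukocytes shed into milk, is the routine indicator of udder inflammation. In units of 1000 cells/mL, it was 163 to 300 on day 3 in Cow 2 and Cow 1 and 18 to 89 in all other libraries. The level of miR-16a was lower in these milkings than on the other days of the same cow. In Cow 2 it was 9.88 in the evening and 9.58 in the morning of day 3, against 9.995 to 10.58 on the other days. In Cow 1 it was 9.06 in the evening and 9.18 in the morning of day 3, against 9.72 to 10.34 on the other days. The values did not overlap in either cow.

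In a fit that included the cow, the slope of miR-16a was -0.22 in log2 per doubling of SCC (SE 0.087, 95% interval -0.39 to -0.04). Its unadjusted p was 0.0185, and after adjustment by limma over all miRNAs (p = 0.222) it missed the threshold, which 2.27% of the miRNAs passed. An unadjusted p under 0.05 was reached by 16 of the 132 miRNAs in this fit. Without these 4 libraries the slope was -0.06 (adjusted p = 0.990). Within Cow 2 and Cow 1, SCC and day cannot be told apart. In Cow 4, whose day 3 milkings had an SCC of 47 in the evening and 45 in the morning, miR-16a was at 9.31 in the evening and 9.54 in the morning of day 3, within the range of its other days. For the evening value (9.3115) this held only through the low library of day 2 evening (8.15), since the next lowest of the other days was 9.3118. With session and day as covariates the slope was -0.17 (adjusted p = 0.949). Neither miR-15b (0.06, 95% interval -0.22 to 0.33, adjusted p = 0.937) nor miR-16b (-0.05, 95% interval -0.30 to 0.21, adjusted p = 0.943) had a slope past the threshold. In the morning of day 3 in Cow 1, when SCC was 297 in the same unit, miR-16b was at 8.02, near the top of its range in that cow. In the evening of that day, at an SCC of 190, it was at 6.60, the lowest of Cow 1. In Cow 2 on day 3 miR-16b was at 5.57 in the morning, the lowest of that cow, and at 7.47 in the evening, the highest.

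**Figure D4:**
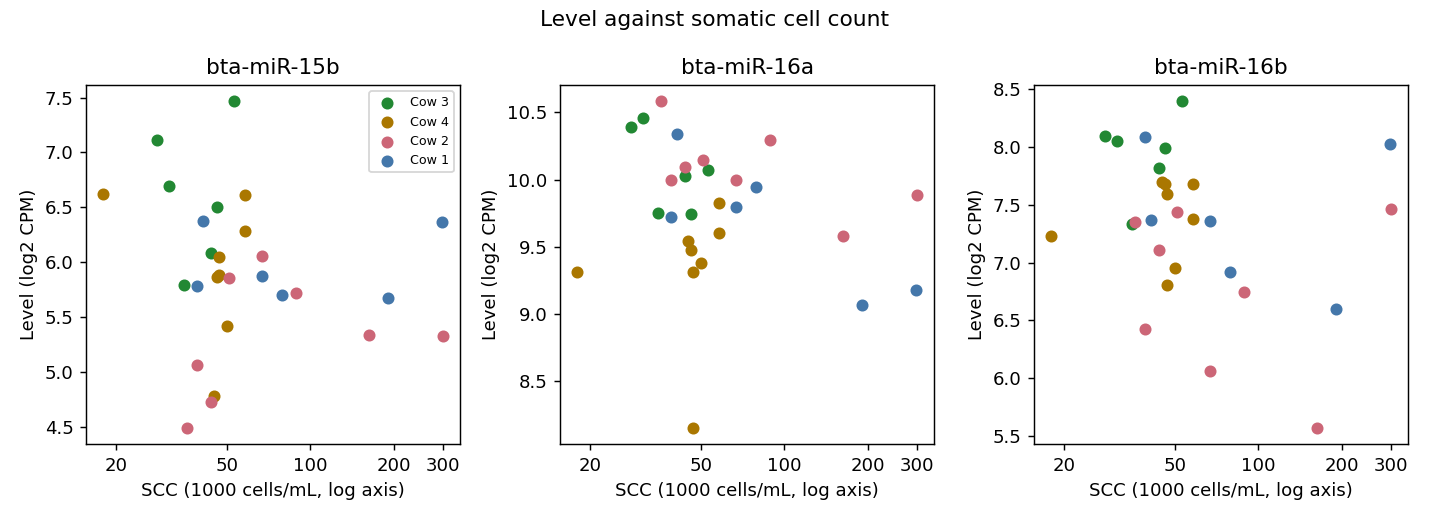
Level of each member in log2 CPM (vertical axis, own range per panel) against SCC (horizontal axis, logarithmic, in 1000 cells/mL) in the 28 libraries, with colours for the cows. The 4 libraries from 163 upward hold the lowest miR-16a values of Cow 2 and of Cow 1 (not counted over all miRNAs). For miR-16b they hold the lowest value of Cow 2 (5.57) and of Cow 1 (6.60), but also the highest of Cow 2 (7.47). For miR-15b they include the lowest value of Cow 1 (5.67) and lie inside the range of Cow 2.

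The 4 days were also compared over all cows. No member differed among days (limma moderated F test, adjusted p = 0.834 for miR-15b, 0.566 for miR-16a and 0.934 for miR-16b, 0% of all miRNAs called, 14 at an unadjusted p under 0.05, and 0 by limma-voom). Day 3 against day 1 gave -0.40 for miR-16a (95% interval -0.83 to 0.03, adjusted p = 0.375), -0.07 for miR-15b and 0.005 for miR-16b, where 2.27% of all miRNAs were called.

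The level of miR-16a moved with the composition of the libraries. Across the 28 libraries its log2 CPM had a Pearson r of 0.630 with the log2 normalization factor, beside 0.263 for miR-15b and 0.230 for miR-16b, as a description with no test. The library with the lowest factor, the evening of day 2 in Cow 4 (0.696), also had the lowest miR-16a level, 8.15 with 30 reads. On day 3 the factors were 0.793 in the evening and 0.812 in the morning for Cow 1, the lowest of that cow. For Cow 2 they were 0.868 in the evening and 0.964 in the morning, the second of which was above other libraries of that cow (0.909 and 0.912). A low factor raises the scaled values of a library, so the share of raw reads was lower still, at 0.0415% in the evening and 0.0461% in the morning of day 3 in Cow 1, beside a median of 0.0906% over all libraries. What else in these libraries moved with miR-16a was not tested.

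As references, the members were not among the stable miRNAs of these libraries. A reference should vary little between samples, and the SD over the 28 libraries was 0.692 in log2 for miR-15b, 0.506 for miR-16a and 0.652 for miR-16b. These were ranks 92, 60 and 86 from the lowest of 132, where the median was 0.523 and the lowest, of miR-429, was 0.182. The mean SD of the log ratio to each other miRNA, which needs no scaling, gave nearly the same ranks of 93, 61 and 86. miR-16a was thus near the middle, and the other members lay in the less stable part.

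Differences between cows made up 44.2% of the variance of miR-15b, 42.3% of miR-16a and 42.1% of miR-16b, against a median of 26.8% over the 132 miRNAs. The counting of few reads accounted for an estimated 60.0% of the variance within cows for miR-15b and 30.5% for miR-16b, but for 9.94% for miR-16a. With the counting variance taken off, an alternative chosen after the data were seen, the SD was 0.546 for miR-15b (rank 84), 0.489 for miR-16a (rank 69) and 0.584 for miR-16b (rank 90). SD fell with abundance across all miRNAs (Spearman rho -0.699 across miRNAs, which are not independent replicates), so scarcity and instability cannot be told apart for miR-15b and miR-16b from the raw SD alone.

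A list of 12 other miRNAs that have served as references in biofluids gave a comparison. Their median SD was 0.386, and 10 of the 12 had a lower SD than every member. For miR-320a (0.5057) and miR-425-5p (0.5033) the gap to miR-16a (0.5061) was small. Most of the 12 were also more abundant than miR-16a, and SD fell with abundance. miR-361, at the same mean level as miR-15b (5.91 log2 CPM), had an SD of 0.705, beside 0.692 for miR-15b. miR-191 (0.218, rank 7), miR-186 (0.251, rank 12) and miR-423-5p (0.324, rank 21) were among the steadier ones, and let-7a-5p, the most abundant miRNA of these libraries, had an SD of 0.415. Of the 12, 5 were called among cows by limma, beside 47% of all miRNAs. These included miR-103 (limma adjusted p = 0.00063), while miR-186 was not called (adjusted p = 0.787).

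**Figure D5:**
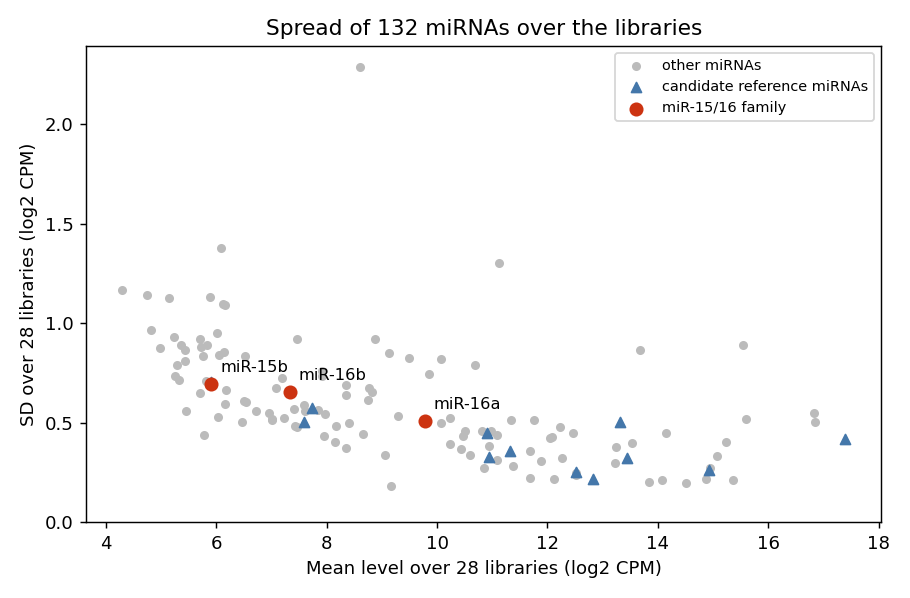
SD over the 28 libraries in log2 CPM (vertical axis) against mean level in log2 CPM (horizontal axis) for the 132 miRNAs. The 3 members are red circles (0.692, 0.506 and 0.652), the 12 candidate references blue triangles and the others grey. In all, 10 of the 12 triangles lie below all red circles.

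The consequence of using a member as the reference was computed by subtracting its log2 level from that of every other miRNA in each library. By the F test, miRNAs called among cows then numbered 87 of 131 (66.4%) with miR-15b, 98 of 131 (74.8%) with miR-16a and 85 of 131 (64.9%) with miR-16b, each beside 61 of the same 131 as deposited. With the summed reads of miR-16a and miR-16b the count was 84 of 130 (64.6%), beside 60 as deposited. The sets overlapped only in part, with 42 called in both under miR-15b, 52 under miR-16a and 43 under miR-16b. Each member was itself called among cows, and subtracting it puts its cow difference into every other miRNA. A rise in calls is therefore in part built in, and no miRNA outside the family was tried as a reference in this way.

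Subtracting a member shifts all other miRNAs of a library alike, so the median difference between cows then mirrors the cow difference of that member by construction. For Cow 4 against Cow 2 the median was -0.56 in log2 with miR-15b, -0.55 with miR-16b and 0.81 with miR-16a. For Cow 3 against Cow 4 it was below 0 with each, at -0.69, -0.59 and -0.77 in the same order. The comparison of evening with morning still gave 0 calls (0%) with any of these references, with 0 miRNAs at an unadjusted p under 0.05 with miR-15b, 1 with miR-16a, 0 with miR-16b and 1 with the sum. The median evening minus morning difference was -0.14, 0.10, -0.04 and 0.09 in the same order.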

How the data were processed

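Milk was defatted and cleared of cells, and EVs were isolated by ultracentrifugation. The authors trimmed reads and removed PCR duplicates with Trim Galore!, matched sequences to bovine miRBase miRNAs and grouped isomiRs. The deposited values are log2 CPM made by the authors with edgeR, which the submitters' processing notes name without a version. All 3696 values came back as whole reads (within 0.01) at a prior count of 2.

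Since the unit is log2, limma 3.58.1 (R 4.3.3) with a variance trend was run on the values. Sessions and SCC were fitted with cow as a covariate, cows by F test and contrasts, and p-values were adjusted over 132 miRNAs (FDR 0.05). Tests were two-sided, and scripts were tested on simulated data. Each cow and day has an evening and a morning library. Residuals correlated at 0.0774 on average within these 14 pairs and at -0.203 between days of a cow. Residuals left after cow means are removed correlate below 0 on average by construction, so these values do not show that the libraries of a pair are independent.

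The text names every member, the 3 miRNAs closest to each, and list members. The members and lists were chosen with earlier results of these data known. Alternatives covered scaling, prior counts (0.5 and 5), a mean log2 CPM of at least 7, summed miR-16a and miR-16b, blocks, single sessions and omitted cows or libraries.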

Additional observations from a re-analysis of the deposited data

Results flagged for a closer look

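Of 24 groups of 6 or 8 values examined for a sample far from the others, 1 stood out, and chance marks about 1 in 20 such groups. It was the miR-16a level of Cow 4 in the evening of day 2, at 8.15 log2 CPM (30 reads), which lay far below the other 7 libraries of that cow, at 9.31 to 9.83. The gap to the nearest value was 0.692 of the whole range, above the critical value of 0.526. Without this library the evening minus morning difference of miR-16a was 0.006 in place of -0.09.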

How the results depend on the processing

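Read numbers limit miR-15b and miR-16b most, and all p-values rest on milkings of 4 cows. The count of evening against morning calls stayed at 0 in 15 alternatives and 28 omissions of 1 library. With the cow and day pair as a replicate block the session differences were unchanged at 0.15 for miR-15b, -0.09 for miR-16a and 0.05 for miR-16b (limma adjusted p = 0.995 each). They lay at 0.058 to 0.219, -0.15 to 0.0062 and -0.053 to 0.12 when 1 library was left out, and miR-16a turned sign only without Cow 4 day 2 evening. The sign also turned for miR-16a without Cow 4 (0.084) and for miR-16b without Cow 2 (-0.204), without Cow 3 (-0.025) or with the reads of miR-16a summed in (-0.082).

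The adjusted F test p-values among cows passed in all omissions of 1 library (0.0042 to 0.0265 for miR-15b, 0.0041 to 0.0153 for miR-16a, 0.0065 to 0.0261 for miR-16b). They missed the threshold in the morning alone (0.547 for miR-15b, 0.342 for miR-16a, 0.0730 for miR-16b), in the evening alone for miR-16b (0.126), with pair means for miR-16a (0.0678) and with a random replicate block for miR-16b (0.0583). Morning, evening and pair means use fewer values, and the calls over all miRNAs were then 15, 29 and 30 (57 to 68 with 1 library left out). With a random replicate block, which keeps all 28 libraries, 45 miRNAs were called in place of 62. The ratio of miR-16a to miR-15b missed it in the morning alone (p = 0.191). The ratio of miR-16a to miR-16b passed in all 5 alternatives (p = 0.00091 to 0.0034). Blocks changed no other call of a member, apart from miR-16a in Cow 3 against Cow 4 with pair means, given above. miR-16a in Cow 4 against Cow 2 missed the threshold after quantile normalization (-0.49, adjusted p = 0.069).

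Contrasts that had not passed the test turned sign. miR-15b in Cow 4 against Cow 1 was 0.13 with library medians set equal and 0.19 in the evening (-0.12 to 0.14 with 1 library left out). miR-16a in Cow 3 against Cow 2 was -0.081 with session and day as covariates and -0.13 in the morning (-0.074 to 0.076), and in Cow 4 against Cow 1 it was 0.020 in the morning. miR-16b in Cow 4 against Cow 1 was 0.14 with medians set equal, 0.0096 with quantile normalization, 0.018 with limma-voom, 0.030 with both covariates and 0.37 in the evening (-0.17 to 0.12). miR-16b in Cow 3 against Cow 1 was -0.032 in the morning, and in Cow 2 against Cow 1 it was 0.15 in the evening and 0.25 with miR-16a summed in. That sum, which is mostly miR-16a, also gave -0.56 in Cow 4 against Cow 2, which passed the test (limma adjusted p = 0.027). Cow 3 against Cow 2, called for miR-16b alone, kept its sign with the sum but lost its call (0.16, limma adjusted p = 0.581). Day 3 against day 1 was 0.048 with medians set equal for miR-15b (-0.19 to 0.15 with 1 library left out), and for miR-16b -0.070 with quantile normalization and -0.014 with a prior count of 0.5 (-0.15 to 0.28).

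The 3 SCC calls over all miRNAs became 1 without the variance trend, 1 with quantile normalization, 6 with a mean log2 CPM of at least 7, and 0 with both covariates, with a random replicate block or without day 3 of Cow 1 and Cow 2 (0 to 6 with 1 library left out), and the day calls became 2 with medians set equal (0 to 1). The slope of miR-16b on SCC was -0.18 to 0.044 with 1 library left out. The SD of miR-15b was 0.546 with counting variance taken off and 0.532 with a prior count of 5, but 0.835 with a prior count of 0.5. The SD of miR-16b was 0.455 with miR-16a summed in and 0.490 without Cow 2, but 0.747 without Cow 4. That of miR-16a was 0.390 without Cow 4 and 0.529 without Cow 2. Unless stated, the cause was not tested.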
